A study of Homo sapiens with 9 samples.

Results

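The proteasome genes were taken from the RNA measurements by symbol: every gene named PSMA to PSMG followed by a number entered, and pseudogenes and antisense genes did not. Of 57338 genes in the deposited table, 48 fitted, and another 53 genes with a PSM symbol were left out, 44 of them pseudogenes. The members fell into 7 alpha ring genes, 3 constitutive catalytic genes (PSMB5, PSMB6 and PSMB7), 4 other beta ring genes, 3 immunoproteasome catalytic genes (PSMB8, PSMB9 and PSMB10), 2 tissue-restricted genes of the 20S core, 6 ATPase and 11 other genes of the 19S particle, 3 genes for 19S assembly, 4 for 20S assembly, 4 activator genes and the regulator PSMF1.

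The study asked how protamines, the small basic proteins that pack sperm DNA, act on chromatin and transcription in somatic cells. The cells were HEK293T, which derive from human embryonic kidney and carry SV40 large T antigen, and they received a pcDNA3.1 plasmid coding for EGFP by itself (empty vector) or for EGFP joined to human protamine 1 (hPRM1) or protamine 2 (hPRM2). By the study's methods, live cells with high EGFP were sorted 3 days later, so by design all groups carried plasmid and EGFP and were selected for strong plasmid expression. Whether the libraries labelled hPRM1 came from such cells is uncertain, given the values below. RNA was read from its 3′ end with 3 libraries per group, and the labels do not tell whether these were separate cultures, so the p-values measure only the spread between these libraries.

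The libraries labelled hPRM1 went against their label. PRM1 was listed at 0 in all 9 libraries, whereas PRM2 was at 71224, 60050 and 36130 RPKM in hPRM2 and at 0 elsewhere (RPKM, reads per kilobase of gene, scaled to the reads of the library). Of 9 HEK293T marker genes, 8 were at 0 in all 3 libraries labelled hPRM1. Their summed level was 335 to 399 RPKM in the empty vector, 123 to 262 RPKM in hPRM2 and 0 to 0.306 RPKM in the libraries labelled hPRM1. All 12 leukocyte markers (PTPRC, LYZ and others) were at 1 RPKM or more in each library labelled hPRM1, with sums of 6420 to 7344 RPKM, against at most 7.01 RPKM in the other 6 libraries. The sum of 10 haemoglobin and erythroid markers was 2062800 to 2269070 RPKM there and at most 73.0 RPKM elsewhere, and that of 5 platelet markers was 319 to 560 RPKM against at most 13.5 RPKM. Of these, 8 of the 10 and 4 of the 5 were at 1 RPKM or more in each library labelled hPRM1. The erythroid sum came mostly from HBA1, HBA2 and HBB. The library names in the sample descriptions also gave those 3 another run of numbers than the other 6, so library series and label cannot be told apart. Reads on genes, estimated from the spacing of low values, came to 7870000 to 10760000 per empty vector library, 4210000 to 5860000 per library labelled hPRM1 and 1270000 to 2650000 per hPRM2 library. The paper gives another order for the reads obtained, which is a different measure, with hPRM1 lowest and hPRM2 between it and the controls. It also reports a decrease of exonic reads in hPRM2 in particular. The reason for this difference was not tested.

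The proteasome is the protease that breaks down proteins tagged with ubiquitin. Its 20S core is a barrel of alpha and beta rings, in which PSMB6, PSMB7 and PSMB5 carry the caspase-like, trypsin-like and chymotrypsin-like activities, and the 19S particle at its ends binds, unfolds and feeds in the substrate. In cells of the immune system, and elsewhere after interferon gamma, PSMB9, PSMB10 and PSMB8 take the places of PSMB6, PSMB7 and PSMB5 in newly built cores, and this immunoproteasome, often with the activator PA28, favours peptides that MHC class I molecules present.

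Genes of the immunoproteasome and of PA28 are known for interferon response elements near their start sites. RefSeq promoter windows (GRCh38.p14, 250 bases before to 50 after a start) were at hand for 42 of the 48 genes, in 51 windows. The letters GAAANNGAA, the core of the interferon-stimulated response element, read on both strands, occurred in 8.11% of all 35116 windows and in 8 windows of proteasome genes (15.7%), 1 each for PSMB8, PSMB10, PSME1, PSME2, PSMG4, PSMA4, PSMB4 and PSMC2. The stretches below, 29 bases along the gene's strand with the match in capitals, are shown because PSMB8, PSMB10 and the PA28 genes PSME1 and PSME2 hold the same 9 letters or their reverse complement, as does PSMG4, whereas PSMA4, PSMB4 and PSMC2 hold others.
PSMB8, chr6:32844032-32844060, minus strand: atctgtggctTTCGCTTTCacttcctcct
PSMB10, chr16:67936853-67936881, minus strand: gggtaaaggcGAAAGCGAAagcaggaagt
PSME1, chr14:24136190-24136218, plus strand: ccctaccgctTTCGCTTTCccttcgcggt
PSME2, chr14:24146620-24146648, minus strand: cctggggagtGAAAGCGAAagcccgggcg
PSMG4, chr6:3258904-3258932, plus strand: ttccggggccGAAAGCGAAagcgcgctcg
PSMA4, chr15:78540155-78540183, plus strand: atagtgaagaGAAAATGAAaggagagcgc
PSMB4, chr1:151399495-151399523, plus strand: tcgtctacagGAAAAAGAAagaaatgaca
PSMC2, chr7:103347626-103347654, plus strand: gtggggaaggGAAAGGGAAgacaccaccg

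The match began 3 bases before the start in PSMB8, 7 in PSMC2, 21 in PSMB10, 28 in PSME2 and 33 in PSMG4, and in PSME1 it lay just inside the transcript. The window of PSMB9 held no match to these letters. Other motifs were read the same way. TTCNNNGAA, the form bound by STAT dimers, occurred in 8 of the 51 windows (15.7%, against 7.66% of all windows), PSMB8 and PSMB5 among them. GGAANNCCC, a partial NF-kB form, occurred in 6 windows (11.8% against 6.58%), again with PSMB8. TGACNNNGC, the antioxidant response form through which NRF1 raises proteasome genes, occurred in 15 windows (29.4% against 13.3%), including PSMB9, PSME1, PSME2, PSMB3 and PSMC4. ATTGG, the core of the CCAAT box, was in 20 windows (39.2% against 34.6%). None of the 8 matches in capitals overlapped a match to another of these motifs, and the flanks were not checked for this. These are matches of letters, not binding sites.

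In the empty vector the constitutive catalytic genes stood far above their immunoproteasome partners. PSMB5 (chr14:23016543-23035230, minus strand) was at 241, 266 and 306 RPKM in the empty vector, at 10.6, 8.38 and 16.7 RPKM in the libraries labelled hPRM1 and at 490, 167 and 175 RPKM in hPRM2. PSMB6 (chr17:4796144-4798503, plus strand) was at 336, 397 and 418 RPKM, then 22.03, 30.4 and 23.5 RPKM, then 390, 308 and 282 RPKM, in the same order of groups. PSMB7 (chr9:124353466-124415444, minus strand) was at 262, 286 and 311 RPKM, then 28.6, 22.8 and 16.01 RPKM, then 376, 292 and 358 RPKM. For all 3 genes every library labelled hPRM1 lay below every other library, while empty vector and hPRM2 overlapped.

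The immunoproteasome genes ran the other way. PSMB8 (chr6:32840717-32844703, minus strand) was listed at 0 in all 6 libraries of the empty vector and hPRM2, against 120, 109 and 103 RPKM in those labelled hPRM1. PSMB9 (chr6:32844136-32859585, plus strand) was at 1.26, 4.11 and 0.35 RPKM in the empty vector, at 214, 209 and 188 RPKM in the libraries labelled hPRM1 and at 0, 1.94 and 1.30 RPKM in hPRM2. PSMB10 (chr16:67934502-67937087, minus strand) was at 17.7, 12.2 and 4.29 RPKM, then 16.8, 9.65 and 22.4 RPKM, then 22.6, 6.72 and 22.5 RPKM. PSMB8 and PSMB9 thus separated the libraries labelled hPRM1 from all others without overlap, and PSMB10 overlapped in all groups. In bulk RNA, fewer cells of a type and less RNA per cell cannot be told apart.

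**Figure D1:**
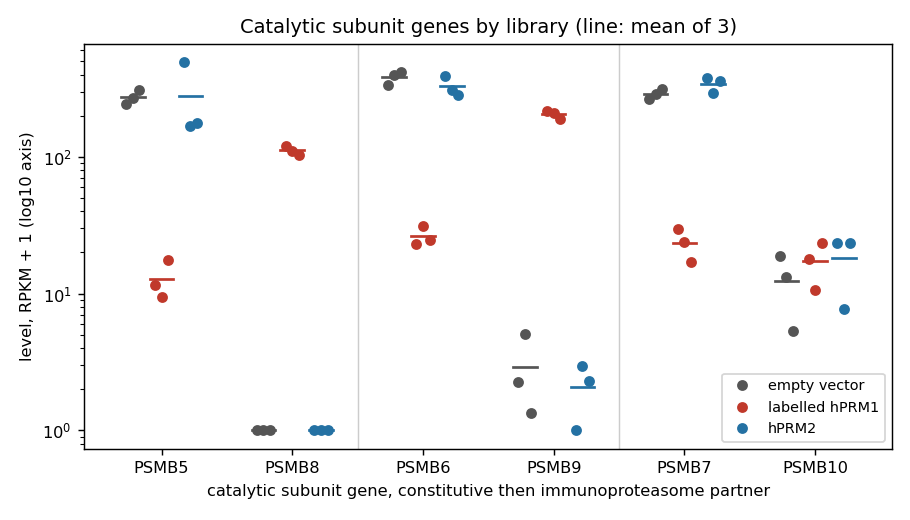
Level of the 6 catalytic subunit genes in each of the 9 libraries (y axis, RPKM plus 1, log10 axis), each constitutive gene beside its immunoproteasome partner, with points for libraries and lines for the mean of 3. PSMB8 and PSMB9 are high only in the libraries labelled hPRM1, where PSMB5, PSMB6 and PSMB7 are low, and PSMB10 overlaps between all 3 groups.

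PSMB8, PSMB9 and the antisense gene PSMB8-AS1 overlap on chromosome 6 (coordinates from GENCODE 29, GRCh38), and PSMB9 also overlaps the peptide transporter gene TAP1 on the opposite strand. PSMB8-AS1, on the strand of PSMB9, was itself at 33.0, 41.8 and 26.7 RPKM in the libraries labelled hPRM1 and at 0 elsewhere. Whether reads were counted by strand is not given in the sources used here, so the split of reads among these genes is uncertain.

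Against the empty vector, PSMB8 and PSMB9 were called higher in the libraries labelled hPRM1, and all 3 constitutive partners were called lower. Among all tested genes 12.9% were called higher and 62.5% lower. A call needed an adjusted p of at most 0.05 (limma on log2(RPKM + 1), adjusted over 13588 genes) and a fold of at least 2. PSMB9 rose 107-fold by its mean RPKM, from 1.91 ± 1.96 to 204 ± 14.0 (SD, n = 3), with an adjusted p of 3.17e-05, and the fold was 254 without empty vector library 2. PSMB8 was at 111 ± 8.42 RPKM against a group listed at 0, so no fold is given (adjusted p = 2.02e-06). It passed the filter on low values only through the libraries in which it was high. PSMB5 fell 22.9-fold (log2 difference -4.45 ± 0.27 SE, adjusted p = 1.53e-05), PSMB6 15.2-fold (-3.88 ± 0.19, adjusted p = 7.81e-06) and PSMB7 12.8-fold (-3.65 ± 0.24, adjusted p = 2e-05). PSMB10 was not called, with a log2 difference of 0.59 ± 0.53 (adjusted p = 0.337).

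The deposited scaling matters for this comparison. HBA2, a haemoglobin alpha gene, was at 1223530, 1146420 and 1295700 RPKM in the libraries labelled hPRM1 and at most 18.0 RPKM elsewhere, and values scaled by total reads fall for other genes when a few genes take many reads. How much of the proteasome differences this accounts for was not tested. The median log2 difference of all 13588 genes was -1.72. After median-of-ratios rescaling, which sets the typical gene ratio level between libraries, that median was -0.12, and after quantile normalization -0.39. Under median-of-ratios rescaling PSMB8, still listed at 0 in the empty vector, and PSMB9 (7.94) kept their calls and so did PSMB5, PSMB6 and PSMB7 (-2.33, -1.72 and -1.50), and PSMB10 was then called higher (2.56, adjusted p = 0.00462).

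Ratios were then taken between genes of the same library, where a common scaling cancels except for the added RPKM, which weighs most for genes at or near 0 such as PSMB8 and PSMB9 outside the libraries labelled hPRM1. The log2 ratio of PSMB8 to PSMB5, with 1 RPKM added to each, was -8.08 ± 0.17 in the empty vector, 3.17 ± 0.53 in the libraries labelled hPRM1 and -7.93 ± 0.87 in hPRM2 (SD, n = 3). PSMB9 to PSMB6 gave -7.26 ± 0.998, 2.97 ± 0.24 and -7.42 ± 1.03, and PSMB10 to PSMB7 gave -4.71 ± 1.06, -0.48 ± 0.84 and -4.39 ± 0.74. In each pair the 3 libraries labelled hPRM1 lay above all others, by 11.25, 10.23 and 4.24 against the empty vector. The two-sided exact permutation test gave p = 0.1 for each of these, the smallest that 3 against 3 allows (0.15 after adjustment over 9 comparisons), and again p = 0.1 against hPRM2 (differences 11.1, 10.4 and 3.92). Because PSMB8 was at 0 in 6 libraries, the size of its ratio there depends on the added RPKM and is no bound. Between hPRM2 and the empty vector the ratios differed by 0.15, -0.16 and 0.32 (exact permutation p = 1, 0.8 and 0.7), with overlapping libraries in each.

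**Figure D2:**
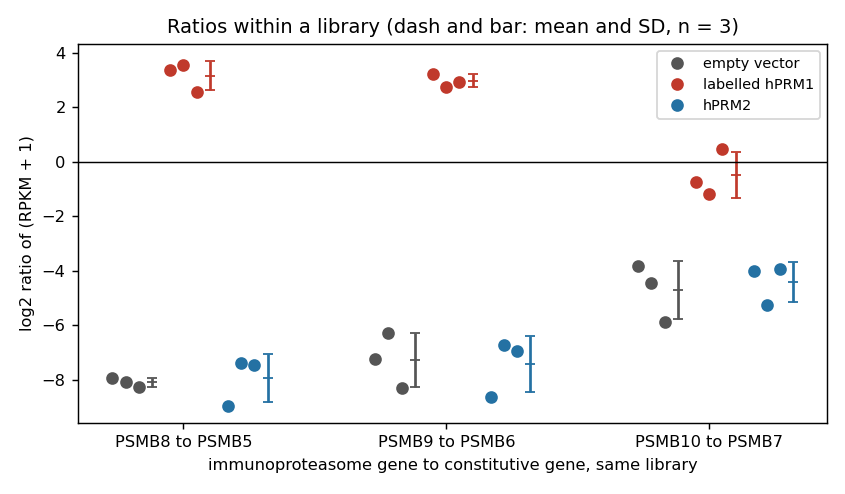
Log2 ratio of each immunoproteasome gene to its constitutive partner in the same library (y axis, 1 RPKM added to both), by group, with points for libraries and mean and SD beside them (n = 3). The libraries labelled hPRM1 average 3.17, 2.97 and -0.48, above every empty vector and hPRM2 library in each pair.

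PSMB8, PSMB9 and PSMB10 together made up 2.21%, 1.69% and 0.446% of the summed RPKM of the 6 catalytic genes in the empty vector, but 85.2%, 84.2% and 84.8% in those labelled hPRM1 and 1.77%, 1.12% and 2.83% in hPRM2. RPKM divides by gene length although 3′ reads do not grow with it, so shares between genes carry each gene's length. PSMB9 ranked 44th by mean level among the 48 genes in the empty vector and hPRM2, and first in the libraries labelled hPRM1.

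Of the 48 genes, 46 were tested in that comparison, 3 were called higher (PSMB8, PSMB9 and PSMD5) and 39 lower, where 12.9% and 62.5% of all tested genes were called higher and lower. PSMB8 and PSMD5 passed the filter only through the libraries labelled hPRM1. Unadjusted p-values were under 0.05 for 43 of the 46 and for 10972 of all 13588 genes. Most tested genes were thus lower on this scale. The median proteasome gene stood at -2.89, below the all-gene median of -1.72, and 36 of the 46 lay below that median. The size of this gap depended on the handling of low values. With 0.1 RPKM added these medians were -2.92 and -2.27, and with 5 RPKM added -2.50 and -0.92. With a minimum of 10 RPKM they were -3.08 and -2.43, with 30 of 44 proteasome genes below. The groups did not overlap for 40 genes lower (66.4% of all genes) and 4 higher (14.5% of all genes). After median-of-ratios rescaling 21 were called lower and 7 higher, where 28.9% and 28.8% of all genes were. The 4 added to the higher calls were PSMB10, PSME1, PSME2 and PSMF1.

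**Figure D3:**
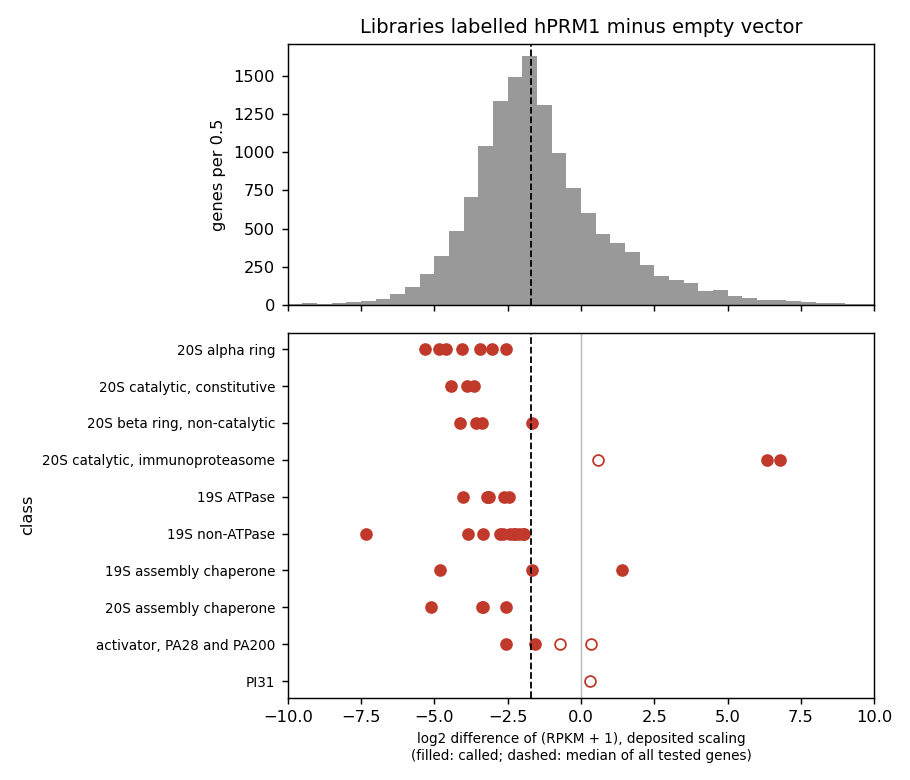
Log2 differences between libraries labelled hPRM1 and empty vector (x axis, log2 of RPKM plus 1), as a histogram of all 13588 tested genes above and as 1 point per proteasome gene by class below (filled, called; dashed line, all-gene median of -1.72). The axis is cut at -10 and 10, beyond which a few genes lie. The alpha ring and constitutive catalytic genes lie left of the dashed line, and PSMB8 and PSMB9 lie above 6.

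The alpha ring, the gate of the core, was lower throughout on the deposited scale. All 7 genes were called, with a median log2 difference of -4.07 (-1.96 after median-of-ratios rescaling, which kept 5 calls). The shares of all tested genes called lower were 62.5%, and 28.9% after that rescaling. PSMA2 had the lowest value, with 160, 189 and 139 RPKM in the empty vector against 5.55, 1.62 and 3.02 RPKM in the libraries labelled hPRM1, a 47.9-fold fall (log2 difference -5.31 ± 0.36 SE, adjusted p = 2.18e-05). PSMA7 moved least, from 645, 801 and 658 RPKM to 111, 133 and 109 RPKM (5.95-fold, adjusted p = 1.9e-05). PSMA3, the highest member in empty vector libraries 1 and 2, was at 733, 807 and 640 RPKM against 24.4, 27.9 and 21.4 RPKM. None of these alpha ring genes overlapped between the groups, where 66.4% of all tested genes were lower without overlap.

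The 4 beta ring genes without catalytic activity were called lower too, at a median of -3.48. PSMB2 fell 18.3-fold, from 300, 345 and 333 RPKM to 16.9, 18.97 and 17.7 RPKM (adjusted p = 3.85e-06). PSMB3 fell least of the 4, from 288, 286 and 277 RPKM to 67.8, 92.3 and 108 RPKM (log2 difference -1.68 ± 0.21, adjusted p = 0.000291), and it turned to 0.49 after median-of-ratios rescaling and 0.12 after quantile normalization, without a call in either. Over the alpha, constitutive and other beta genes, 14 of 14 were called lower, and 11 after median-of-ratios rescaling. For all tested genes these shares were 62.5% and 28.9%. The thymus subunit PSMB11 was listed at 0 in all 9 libraries, and the testis subunit PSMA8 was above 0 only in library 1 labelled hPRM1 (0.12 RPKM), so neither was tested.

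The 19S genes were lower on the deposited scale by less than the core genes, 17 of 17 called at a median of -2.65 against -3.76 for the 14 core genes. After median-of-ratios rescaling those medians were -0.51 and -1.71, with 6 of 17 called lower. Among all tested genes 62.5% were called lower, and 28.9% after that rescaling. The difference between the classes was not tested. The 6 ATPases, which unfold the substrate, had a median of -3.16. PSMC2 fell most among them, from 32.4, 55.4 and 42.7 RPKM to 1.64, 2.12 and 1.36 RPKM (25.5-fold, adjusted p = 1.97e-05). PSMC4 fell least, from 126, 122 and 125 RPKM to 18.9, 27.9 and 20.5 RPKM (5.55-fold, adjusted p = 4.73e-05). After median-of-ratios rescaling PSMC4 was at -0.30, no longer called.

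PSMD14, the deubiquitinase that takes ubiquitin chains off substrates, fell furthest of the 46 genes. It was at 504, 422 and 325 RPKM in the empty vector, at 1.60, 2.09 and 1.12 RPKM in the libraries labelled hPRM1 and at 37.3, 146 and 226 RPKM in hPRM2. The 3 groups did not overlap. The fall was 260-fold in the libraries labelled hPRM1 (log2 difference -7.32 ± 0.25, adjusted p = 3.29e-06). It stood at -5.47 once rescaled by median of ratios. Its rank among the 48 genes went from 6th in the empty vector to 42nd there.

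The other 10 non-ATPase genes lay between -3.86 and -1.93. PSMD13, a structural lid subunit, fell least, from 120, 120 and 144 RPKM to 27.8, 39.6 and 31.6 RPKM (3.88-fold, adjusted p = 0.000134), and was at 0.22 without a call after median-of-ratios rescaling. PSMD4, a ubiquitin receptor, was at 123, 112 and 110 RPKM against 22.5, 30.2 and 34.1 RPKM (-1.97 ± 0.21, adjusted p = 0.000142, and 0.18 without a call after median-of-ratios rescaling). PSMD3 fell from 111, 88.0 and 81.3 RPKM to 20.03, 17.3 and 18.1 RPKM (adjusted p = 5.72e-05), and was at -0.14 without a call on the median-of-ratios scale. The groups did not overlap for any of the 11 non-ATPase genes, where 66.4% of all tested genes were lower without overlap.

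Of the chaperones that help to build the 19S base, PSMD10 (gankyrin) fell 64.3-fold, from 48.6, 49.3 and 42.9 RPKM to 0.79, 0.37 and 1.03 RPKM (adjusted p = 6.48e-06). PSMD5 was listed at 0 in all 6 empty vector and hPRM2 libraries and at 2.40, 1.41 and 1.20 RPKM in those labelled hPRM1. It passed the filter only through them, its call was lost with 5 RPKM added, with a minimum of 10 RPKM and by the per-gene test on RPKM, and it overlaps CUTALP on the opposite strand. PSMD9 fell from 18.1, 34.3 and 29.9 RPKM to 5.15, 7.71 and 10.7 RPKM (adjusted p = 0.00348), but was at 0.35 without a call after median-of-ratios rescaling.

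All 4 chaperones of 20S assembly were called lower, at a median of -3.37, where 62.5% of all tested genes were called lower. PSMG1 fell 83.2-fold, from 66.8, 47.4 and 50.5 RPKM to 0.45, 0.12 and 1.41 RPKM (adjusted p = 1.88e-05), and the fall was 192-fold without library 3 labelled hPRM1. Its dimer partner PSMG2 fell 6.59-fold, from 69.9, 45.4 and 57.0 RPKM to 8.02, 8.73 and 9.40 RPKM (adjusted p = 5.89e-05), and lost its call after median-of-ratios rescaling (-0.49). PSMG4 was at 59.8, 43.5 and 86.6 RPKM against 6.64, 4.68 and 3.73 RPKM. It overlaps TUBB2B on the opposite strand, 1 of the HEK293T markers above.

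The activators split between the interferon-inducible PA28 genes and the rest. PSME1, PA28 alpha, was at 93.7, 108 and 112 RPKM in the empty vector, at 129, 132 and 134 RPKM in the libraries labelled hPRM1 and at 48.4, 124 and 65.0 RPKM in hPRM2. PSME2, PA28 beta, was at 151, 154 and 142 RPKM, then 98.7, 73.8 and 102 RPKM, then 149, 86.8 and 126 RPKM. Each library labelled hPRM1 was thus above the empty vector for PSME1 and below it for PSME2 on the deposited scale. Neither was called (0.33 ± 0.15, adjusted p = 0.0823, and -0.71 ± 0.18, adjusted p = 0.00994, a fold under 2). After median-of-ratios rescaling both were called higher, PSME1 at 2.501 and PSME2 at 1.46, a change of sign for PSME2, and both were called higher after quantile normalization as well (2.14 and 1.10).

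PSME3, the nuclear PA28 gamma that interferon does not induce, was at 46.4, 63.1 and 48.8 RPKM, then 7.31, 9.23 and 7.40 RPKM, then 70.7, 38.7 and 41.6 RPKM. It fell 6.61-fold in the libraries labelled hPRM1 (adjusted p = 4.92e-05) and was at -0.51 without a call after median-of-ratios rescaling. PSME4, PA200, an activator that binds acetylated histones in spermatids, was at 10.6, 10.3 and 6.43 RPKM, then 2.34, 2.18 and 2.40 RPKM, then 29.9, 22.5 and 4.81 RPKM. It was called lower in the libraries labelled hPRM1 (-1.59 ± 0.24, adjusted p = 0.000896), and stood at 0.19 without a call after median-of-ratios rescaling. PSMF1, the regulator PI31 that binds the core, was at 44.3, 44.6 and 59.1 RPKM, then 62.2, 50.6 and 69.3 RPKM, then 65.6, 27.5 and 29.9 RPKM, with overlap between all groups and no call (0.30 ± 0.21, adjusted p = 0.235). It was at 2.44, called higher, after median-of-ratios rescaling.

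Summed over the 48 genes, the level was 8143, 8961 and 7578 RPKM in the empty vector. It was 1416, 1523 and 1470 RPKM in those labelled hPRM1 and 8678, 7141 and 7103 RPKM in hPRM2. PSME1 and PSME2 made up 3.01%, 2.92% and 3.35% of that sum in the empty vector, but 16.1%, 13.5% and 16.04% in those labelled hPRM1 and 2.27%, 2.95% and 2.69% in hPRM2. PSMF1 made up 0.498% to 0.779% in the empty vector, 3.32% to 4.71% in the libraries labelled hPRM1 and 0.385% to 0.756% in hPRM2. Both shares were higher in each library labelled hPRM1 than in any other library. The summed levels of the marker lists for blood cells were also higher in the libraries labelled hPRM1, as given above, and their part in these shares was not tested.

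**Figure D4:**
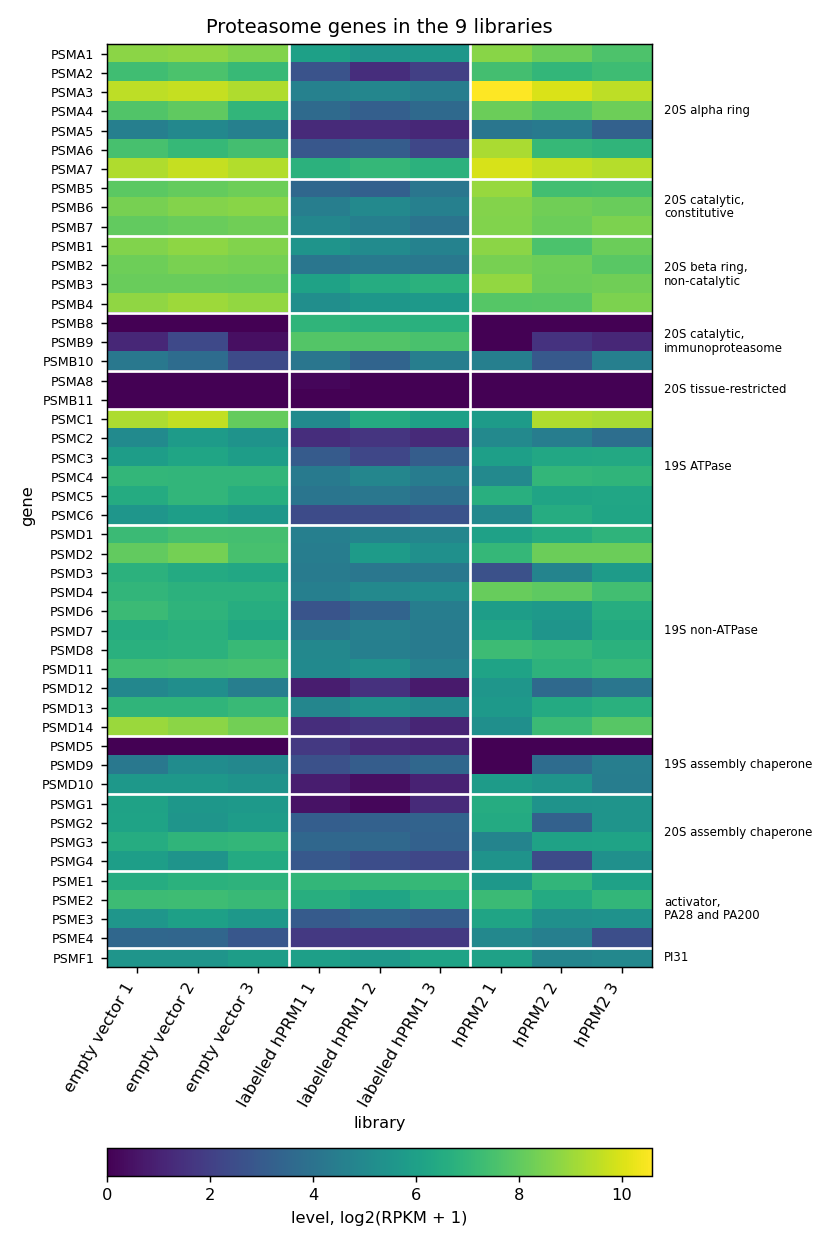
Level of the 48 proteasome genes (rows, by class) in the 9 libraries (columns), as log2 of RPKM plus 1 in colour, from 0 (dark) upwards. The libraries labelled hPRM1 are darker across the 20S, 19S and assembly genes and brighter for PSMB8 and PSMB9, and PSMB11 is at 0 in all 9 libraries.

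Genes that work with the proteasome moved as follows. Of all 13588 tested genes, 12.9% were called higher and 62.5% lower, and 28.8% and 28.9% after median-of-ratios rescaling. Of 16 partners outside the symbol rule, 15 were called lower in the libraries labelled hPRM1 and 0 higher, at a median of -2.55 against the all-gene -1.72. After median-of-ratios rescaling 5 were called lower (POMP, SEM1, USP14, UCHL5 and UBQLN1) and 1 higher (PITHD1). POMP, the maturation factor of the core, went from 305, 297 and 313 RPKM to 14.4, 14.5 and 14.5 RPKM (-4.31 ± 0.15, adjusted p = 3.32e-06). Of 8 genes of the NRF1 axis, which raises proteasome genes when proteasome activity is short, 5 were called lower and 0 higher at a median of -1.21, with NFE2L1, the gene of NRF1, at -2.05 (adjusted p = 0.000158), whereas after median-of-ratios rescaling the median was 0.70 with 2 called higher and 0 lower. Of 6 ubiquitin and E1 enzyme genes, 4 were called lower at a median of -1.62, but 1 lower and 2 higher at a median of 0.47 after median-of-ratios rescaling. On the deposited scale the shares called lower in the NRF1 and ubiquitin lists were near the 62.5% of all tested genes.

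Of 19 genes of interferon gamma signalling and peptide loading, 11 were called higher and 3 lower (CALR, CANX and PDIA3, chaperones of the endoplasmic reticulum), at a median of 1.42, and 15 higher and 1 lower after median-of-ratios rescaling. Of all tested genes, 12.9% and 62.5% were called higher and lower on the deposited scale. IRF1, a transcription factor of the interferon response, was at 10.5, 10.5 and 9.55 RPKM in the empty vector against 109, 133 and 139 RPKM in the libraries labelled hPRM1 (3.51 ± 0.18, adjusted p = 8.77e-06). TAP1, the peptide transporter beside PSMB9, was at 5.01, 5.87 and 8.07 RPKM against 35.5, 28.5 and 31.7 RPKM (adjusted p = 0.000149). B2M, TAP2 and NLRC5 were also called higher, by 1.42 to 3.88 on the log2 scale. The interferon gamma receptor genes IFNGR1 and IFNGR2 were not called on the deposited scale (-0.98 and -0.27). After median-of-ratios rescaling IFNGR2 was called higher. Leukocyte markers were also high in these libraries, as given above, and their part in these calls was not tested.

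In hPRM2, the group whose protamine transcript was present, none of the proteasome genes was called. Of 44 tested, 0 were called higher and 0 lower by limma (1.36% and 1.37% of 13126 genes), and 6 had an unadjusted p under 0.05, where 3351 of the 13126 genes had. The per-gene test of the alternatives also called 0, with 5 at an unadjusted p under 0.05 (2517 of the 13126 genes). The median gene of the 44 stood at -0.35 and the median of all genes at -0.72 (-0.25 after median-of-ratios rescaling), with 13 of the 44 below the all-gene median. The groups did not overlap for 2 genes higher (6.01% of all genes) and 11 lower (29.9% of all genes). PSMB8 and PSMD5 were at 0 in both groups.

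The constitutive catalytic genes had log2 differences of -0.15 (95% interval -1.24 to 0.93) for PSMB5, -0.24 (-0.87 to 0.39) for PSMB6 and 0.25 (-0.36 to 0.87) for PSMB7. PSMB9 was at -0.40 (-1.95 to 1.15) and PSMB10 at 0.57 (-1.14 to 2.28). These intervals include changes of 2-fold or nearly so, so a moderate change was not detectable with these libraries. For PSMB5, hPRM2 library 1 (490 RPKM) lay above and libraries 2 and 3 (167 and 175 RPKM) lay below all empty vector libraries.

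The lowest adjusted p was that of PSMD4, 0.128. PSMD4 was at 279, 249 and 165 RPKM in hPRM2, above each empty vector library (log2 difference 0.97 ± 0.32). PSMD14 was at -1.92 ± 0.65 (adjusted p = 0.137), with each hPRM2 library below each empty vector library. Without hPRM2 library 1, the lowest of the 3, it was at -1.17 and called lower (adjusted p = 0.0456), the only call among the proteasome genes when a library was left out of this comparison. In that fit 810 of all 13126 genes were called higher and 1619 lower. PSMD3 was at 5.14, 26.0 and 54.7 RPKM in hPRM2, all below the empty vector (-2.16 ± 0.78, adjusted p = 0.155), and at -1.27 without library 1.

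In the remaining classes the values of largest rise and fall were as follows, with no call among them. PSMA3 was at 1532, 1014 and 736 RPKM in hPRM2 (log2 difference 0.53, adjusted p = 0.325) and PSMA5 at 16.9, 19.03 and 8.67 RPKM against 22.9, 29.7 and 23.6 RPKM in the empty vector (-0.79, adjusted p = 0.325). PSMB3 was at 471, 292 and 315 RPKM (0.31) and PSMB4 at 218, 229 and 363 RPKM against 459, 519 and 466 RPKM (-0.87, adjusted p = 0.139). Of these 4, PSMB3 lay above and PSMA5 and PSMB4 below the empty vector without overlap, as did 6.01% and 29.9% of all tested genes.

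Among the ATPases PSMC3 was at 61.8, 80.9 and 82.9 RPKM against 58.7, 74.3 and 59.0 RPKM (0.23), with overlap, and PSMC2 at 30.9, 21.4 and 13.2 RPKM, below the empty vector (-1.01, adjusted p = 0.227). Of the assembly genes, PSMD9 was at 0, 12.5 and 22.2 RPKM (-2.02 ± 1.16, adjusted p = 0.308), PSMG1 at 93.2, 42.9 and 43.4 RPKM (0.04) and PSMG4 at 41.7, 4.42 and 38.4 RPKM (-1.57 ± 0.84, adjusted p = 0.278). PSMD10 was at 55.0, 43.6 and 21.6 RPKM (-0.32). The lowest hPRM2 value of PSMD9 was in library 1 and that of PSMG4 in library 2, and without these libraries the differences were -0.64 and -0.59.

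The spread between libraries was wider in hPRM2. Over the 39 genes at 1 RPKM or more in all 9 libraries, the median SD of log2 level was 0.199 in the empty vector, 0.257 in the libraries labelled hPRM1 and 0.529 in hPRM2. By the estimate used here hPRM2 also had the fewest reads on genes, whereas the paper reports the fewest reads obtained, a different measure, for hPRM1. In hPRM2 the widest was PSMC1, an ATPase gene, at 54.4, 645 and 578 RPKM (SD 2.0). Its pseudogene PSMC1P5 was at 2184 RPKM in hPRM2 library 1 and at 0 in the other 8, so reads may have been divided between these copies and the value of PSMC1 there is uncertain. Library 1 was the highest of the 3 for 25 of the 44 genes and the lowest for 15.

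**Figure D5:**
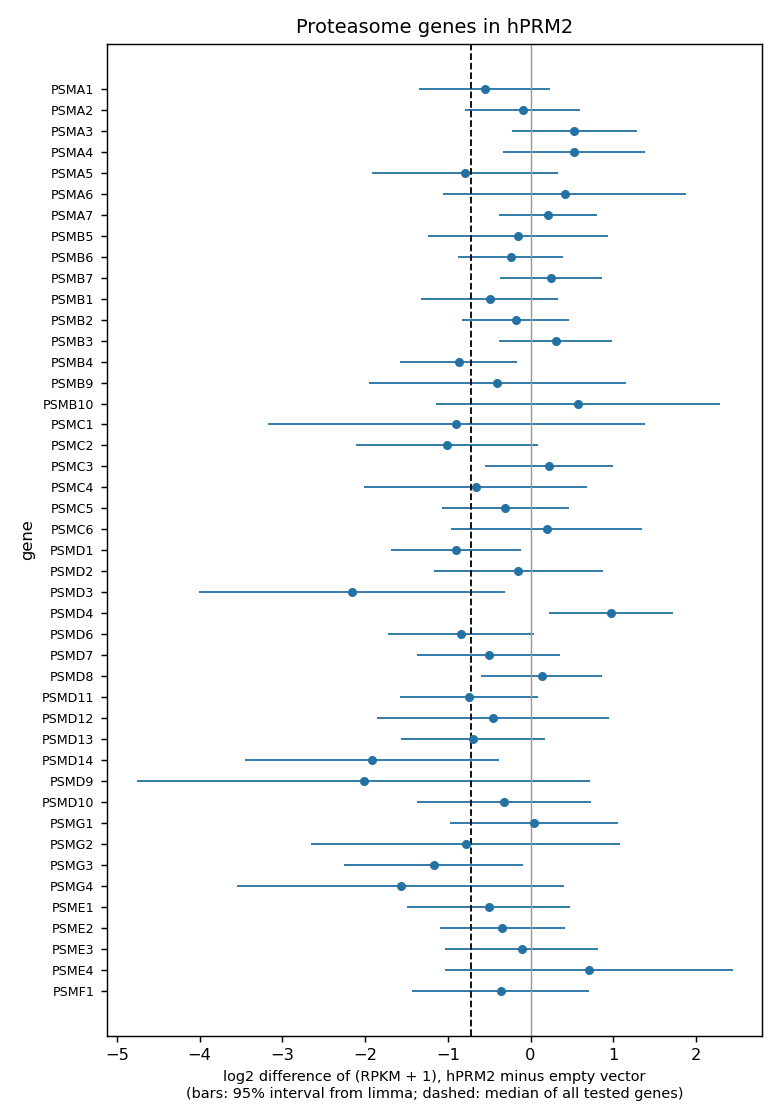
Log2 difference of each of the 44 tested proteasome genes between hPRM2 and empty vector (x axis, log2 of RPKM plus 1), with 95% intervals from limma and a dashed line at the all-gene median of -0.72. None was called, and PSMD4 at 0.97 and PSMD3 at -2.16 are the ends of the range.

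The lists around the proteasome gave 0 calls in hPRM2 in either direction by limma (1.36% and 1.37% of all genes): 16 partners, 8 genes of the NRF1 axis, 17 tested genes of interferon gamma signalling and peptide loading and 6 ubiquitin and E1 genes. Unadjusted p-values were under 0.05 for 3, 3, 4 and 2 of them (3351 of all 13126 genes), and the single call after median-of-ratios rescaling was the ubiquitin gene RPS27A, higher. POMP was at 405, 225 and 224 RPKM in hPRM2 (-0.16 ± 0.32) and IRF1 at 3.06, 16.04 and 9.66 RPKM (-0.31 ± 0.66).

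The libraries labelled hPRM1 were also compared directly with hPRM2. Of 46 genes tested, 3 were called higher and 34 lower (16% and 37% of 11756 genes), at a median of -2.47 against -0.97 for all genes. With a minimum of 10 RPKM these medians were -2.51 and -1.69. After median-of-ratios rescaling 7 of the 46 were called higher and 16 lower, where 3662 and 2148 of the 11756 genes were. PSMB9 stood at 6.76 ± 0.48 (adjusted p = 0.000189), and PSMB5, PSMB6 and PSMB7 at -4.30, -3.64 and -3.90 (adjusted p = 0.00101, 0.000206 and 0.000235). PSMB8, again listed at 0 in hPRM2, was called higher, having passed the filter only through the libraries labelled hPRM1. PSMB10 was at 0.02 ± 0.59, with adjusted p = 0.982, PSME1 at 0.84 ± 0.39 and PSMF1 at 0.66 ± 0.42, none of them called on the deposited scale. The per-gene test on RPKM called 0 of the 46 in this comparison, with 18 at an unadjusted p under 0.05 (3233 of the 11756 genes).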

How the data were processed

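The deposited file was a single table of RPKM values for 57338 genes and 9 libraries. Per their methods, the authors sequenced QuantSeq 3′ libraries, trimmed reads with Cutadapt, assigned them to genes with STAR and Salmon in nf-core/rnaseq, removed mitochondrial genes and divided each count by the library's total and by gene length, so the deposited RPKM carry no counts. Their processing notes name hg38. The annotation and strand setting are not given in the sources used here. All 9 columns were used, and 98.6% of identifiers had a symbol.

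Each comparison was fitted in its own 6 libraries with limma 3.58.1 (R 4.3.3; lmFit, then eBayes with trend and robust) on log2(RPKM + 1), for genes at 1 RPKM or more in at least 3 of the 6, with Benjamini-Hochberg adjustment over all genes tested. Fold changes on that scale understate low genes, and folds quoted as such are ratios of mean RPKM. The fits were repeated with 0.1 or 5 RPKM added, without a filter or with one of 10 RPKM, after median-of-ratios or quantile rescaling, over all 9 libraries at once, with the replicate number as a block, and without each library in turn. Fits without a library kept the genes that passed the filter in the full comparison. A per-gene Welch test on RPKM was also run, and folds of mean RPKM were recomputed without each library, an alternative chosen after seeing the data. Ratios of gene pairs were compared by two-sided exact permutation tests. Depth was inferred from the steps between low values of genes with 1 transcript in GENCODE 29, after shortening each length by 250 bases (2007 values fell on steps, and 222 did without shortening), so depths are estimates and no interval for a value of 0 is given. The fits were tested on simulated data whose spread was capped below the median spread of the proteasome genes in hPRM2, so that test does not cover the noise of that group. Python 3.11.15, pandas 2.3.3, numpy 2.4.6, SciPy 1.17.1 and matplotlib 3.10.9 were used.

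Members and gene lists were chosen with earlier results of these data known. Values are given in every library for PSMB5 to PSMB10, PSME1 to PSME4, PSMF1, PSMA8 and PSMB11. In each other class and each comparison with the empty vector, the members of largest rise and fall have values in at least the groups compared. Other members are given by range and count. PSMC1, POMP, IRF1, TAP1 and the genes in the counts of lists were named beyond that, PSMC1 after its values were seen.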

Additional observations from a re-analysis of the deposited data

How the results depend on the processing

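With 3 libraries per group, no exact test could go below 0.1, and the RPKM carry no depth of their own. The fewest reads on genes, as estimated here, were those of hPRM2, whereas the paper reports the fewest reads obtained, a different measure, for hPRM1. Against the empty vector, the libraries labelled hPRM1 gave 3 proteasome genes higher and 39 lower, whichever library was left out. The genes tested were held fixed in these fits, so none could drop out by the filter. PSMB8 and PSMD5, among the 3 higher, had passed it only through the libraries labelled hPRM1. The counts of 3 and 39 became 7 and 21 after median-of-ratios rescaling and 7 and 24 after quantile normalization, with 24 and 27 of the 42 calls kept. The per-gene Welch test gave 2 and 30. Over all 13588 genes these alternatives gave 3919 and 3925, 3439 and 4787, and 791 and 3723. Against hPRM2, 3 and 34 became 7 and 16, 6 and 19, and 0 and 0 by the same alternatives, and 3 to 4 and 31 to 35 without single libraries. Over all 11756 genes the rescalings and the Welch test gave 3662 and 2148, 3123 and 2587, and 116 and 103. hPRM2 against the empty vector gave 0 and 0 in all these alternatives except for 1 gene lower, PSMD14, without hPRM2 library 1. Over all 13126 genes that fit gave 810 higher and 1619 lower. The replicate numbers did not pair the libraries (9 correlations of deviations between same-numbered libraries, -0.08 to 0.08), and the replicate block gave 3 and 39, 0 and 0, and 3 and 35 calls.

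Median-of-ratios rescaling changed the sign of 7 of 46 tested members in the libraries labelled hPRM1 against the empty vector, 15 of 44 in hPRM2 against the empty vector and 8 of 46 in the direct comparison, of which 6, 0 and 5 had a call on the deposited scale. Quantile normalization changed 2, 2 and 3, of which 1, 0 and 1 had a call. The values below are those of the genes described singly, and the cause was not tested. In the libraries labelled hPRM1 against the empty vector, median-of-ratios rescaling put PSMB3 at 0.49, PSMD13 at 0.22, PSMD4 at 0.18, PSMD9 at 0.35, PSME2 at 1.46 and PSME4 at 0.19, and quantile normalization put PSMB3 at 0.12 and PSME2 at 1.10. In hPRM2 against the empty vector, median-of-ratios rescaling gave PSMA2 0.46, PSMB2 0.38, PSMB5 0.41, PSMB6 0.32, PSMD10 0.23, PSME1 0.052, PSME2 0.22, PSME3 0.44 and PSMF1 0.19. Quantile normalization gave PSMA7 -0.098 and PSME3 0.077 there, and RPKM means gave PSMB5 0.032. Against hPRM2, median-of-ratios rescaling gave PSMC4 0.11, PSMD13 0.66, PSMD3 1.68, PSME2 1.55 and PSMG2 0.032, and quantile normalization gave PSMD13 0.36, PSMD3 1.20 and PSME2 1.51. There PSMB10 was at -0.0070 with a pseudocount of 5 and -0.079 by RPKM means, and PSMD9 at -0.077 and -0.51.

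Leaving out single libraries moved hPRM2 against the empty vector from -0.20 to 0.018 for PSMA2, -0.66 to 0.12 for PSMB5, -0.84 to 0.12 for PSMB9, -0.59 to 0.064 for PSMD10, -0.37 to 0.052 for PSME3, -0.32 to 0.23 for PSMG1 and -1.48 to 0.11 for PSMG2. The ratios moved from -0.12 to 0.66 for PSMB8 to PSMB5, -0.67 to 0.43 for PSMB9 to PSMB6 (0.077 with a pseudocount of 5) and -0.27 to 0.77 for PSMB10 to PSMB7. Against hPRM2 the ranges were -0.52 to 0.33 for PSMB10, -0.997 to 0.59 for PSMD3 and -1.05 to 1.22 for PSMD9.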
